A study of Mus musculus with 2 samples.

Results

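Semaphorins, plexins and neuropilins were compared between osteoblastic cells of Ebf2+/- and Ebf2-/- mouse embryos. Members were the genes on the array whose single annotated symbol names a semaphorin, a plexin of classes A to D, a neuropilin or a plexin domain containing protein. This gave 33 of 18194 genes, read by 83 of 34958 probe sets with 1 gene symbol. The cells came from the tibia and femur of C57Bl/6 embryos at stage E18.5. Both genotypes carry the Ebf2-lacZ allele, so the control group itself lacks 1 functional copy of Ebf2, and wild-type cells were not analysed here. Per the labels, cells that cleaved the fluorogenic beta-galactosidase substrate FDG were isolated by flow cytometry and then expanded, unpassaged, in alpha MEM with 10% serum. Each genotype had 1 array, the labels give 3 mice per genotype without saying whether their RNA was combined, and no value below has a replicate check.

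Semaphorins are ligands built around a sema domain. The class 3 proteins are secreted, those of classes 4 to 6 span the membrane and Sema7a is held there by a lipid anchor. Plexins are their receptors, and the intracellular part of a plexin acts on small GTPases of the Ras and Rap families. Most class 3 semaphorins cannot bind plexins directly and need a neuropilin as the ligand-binding partner. In bone, Sema3a from osteoblast-lineage cells acts through Nrp1 to restrain osteoclasts and favour bone formation, whereas Sema4d from osteoclasts acts through Plxnb1 on osteoblasts to restrain it.

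A signal here is a MAS5 intensity in linear units. The floor, an upper bound of background taken from probe sets of chemosensory receptors, was 17.8 for the heterozygote array and 23.8 for that of the knockout. Each gene was read from whichever of its probe sets had the highest average log2 signal, and was called measured when it exceeded the floor on at least 1 array. Ratios are knockout over heterozygote after lower signals were set to the floor, and are written "at least" where only 1 array exceeded it. Probe sets of one gene gave log2 ratios with a pooled SD of 0.44, a factor of 1.36, over 4119 genes, an error within the arrays that does not hold the variation from animal to animal or culture to culture. In total RNA of a cell population, fewer cells of a type and less RNA per cell cannot be told apart.

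Of the 33 members 31 were measured and 23 exceeded the floor on both arrays. Sema3d, Sema3f and Sema6c had at least 2-fold higher signal in the knockout, and Sema3e and Sema4f had at least 2-fold lower signal. These 3 members were 9.68% of those measured, where 6.30% of all 11785 measured genes were at least 2-fold higher. The 2 lower members were 6.45%, where 3.46% of all measured genes were at least 2-fold lower. A single member counts for 3.23%, so both shares lie within about 1 member of the background. Another 18 members, above the floor on both arrays, differed by less than 2-fold. Sema4a, Sema4b, Plxna4 and Plxnb3 have only a lower bound, which is under 2-fold and leaves their size unknown. For 4 members no fold is given, because their only signal above a floor was too low to pass that of the other array. The median log2 ratio was 0.09 over the 23 members above the floor on both arrays, beside 0.00 over the 10057 such genes of the arrays. By probe set, of the 60 measured, 7 passed 2-fold as higher and 7 as lower, 11.7% each, where the arrays had 6.58% and 3.61%. These are not separate genes, since Sema3e, Sema4f and Sema3f each gave more than 1 of these probe sets. By main probe set, all members past 2-fold were semaphorins, 3 higher and 2 lower of 18 measured (16.7% and 11.1%). A further probe set of Nrp1 was 2.27-fold higher. The 9 plexins, 2 neuropilins and 2 plexin domain proteins measured are few for shares of 6.30% and 3.46%. By their main probe set, both neuropilins and the 7 plexins above the floor on both arrays were under 2-fold, and the bounds of Plxna4 and Plxnb3 did not reach it.

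**Figure D1:**
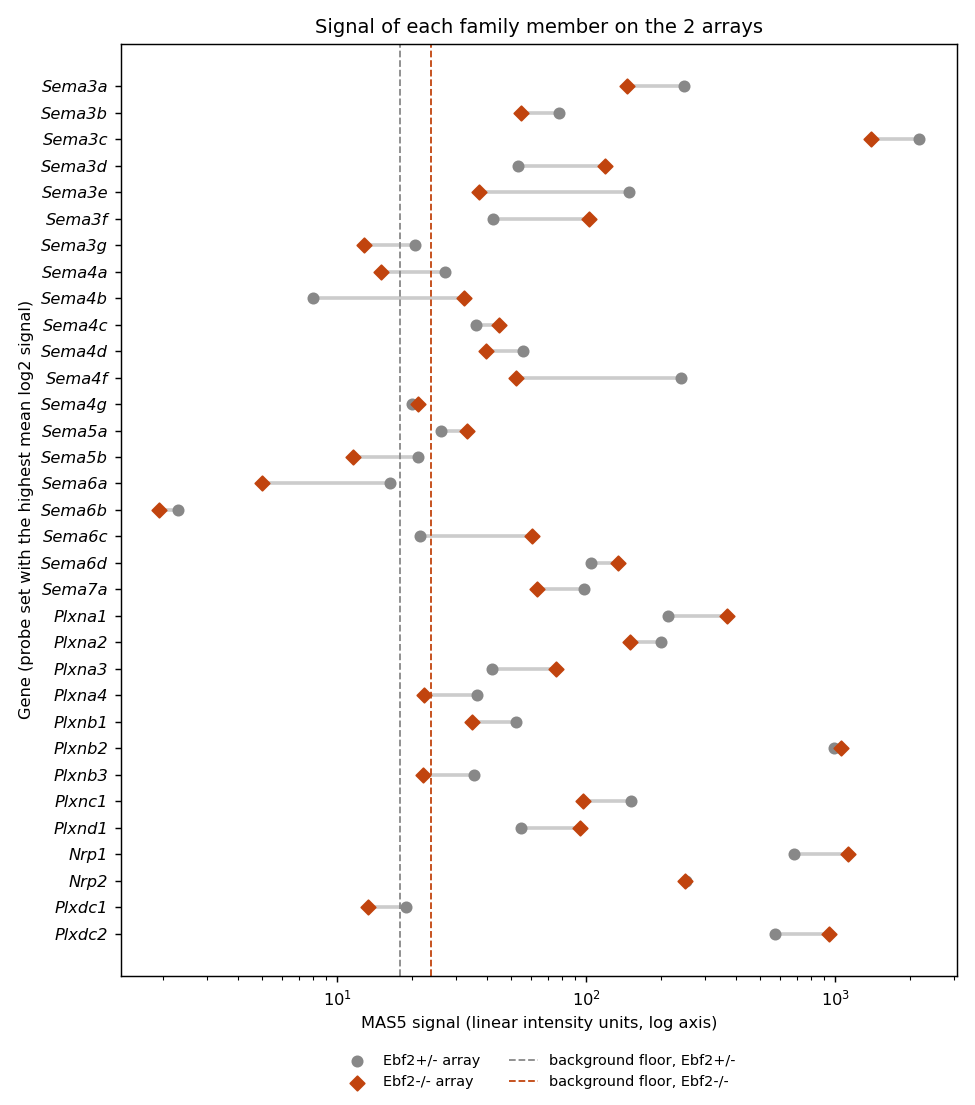
MAS5 signal (log axis, linear intensity units) of each of the 33 members on the Ebf2+/- array (grey circles) and the Ebf2-/- array (orange diamonds), with the floors of 17.8 and 23.8 as dashed lines. The longest lines above the floors belong to Sema3e and Sema4f, which were brighter in the heterozygote, while Sema6a and Sema6b lay under the floor on both arrays.

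Before the values, the DNA upstream of the members past 2-fold with a window is shown, with that of Sema3a, the gene next to Sema3d. Plxnb1 was added because its stretch holds the motif described next. Ebf2 belongs to a family of factors known to bind a palindrome whose core is CCCNNGGG, with T before and A after it in the full motif. The 250 bases before the start site are printed 5′ to 3′ from RefSeq (GRCm38.p6), and capitals mark any match to the core or the full motif. The windows are chr5:12382916-12383165 (+ strand) for Sema3d, chr5:13396534-13396783 (+ strand) for Sema3a, chr5:14025026-14025275 (+ strand) for Sema3e, chr6:82939770-82940019 (- strand) for Sema4f and chr9:109095186-109095435 (+ strand) for Plxnb1. Sema6c has 2 start sites, with windows at chr3:95160170-95160419 and chr3:95164089-95164338 (+ strand).
Sema3d: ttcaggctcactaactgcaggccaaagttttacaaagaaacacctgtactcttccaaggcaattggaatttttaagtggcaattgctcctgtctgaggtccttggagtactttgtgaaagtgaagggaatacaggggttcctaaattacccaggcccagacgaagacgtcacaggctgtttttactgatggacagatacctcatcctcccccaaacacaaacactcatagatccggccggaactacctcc
Sema3a: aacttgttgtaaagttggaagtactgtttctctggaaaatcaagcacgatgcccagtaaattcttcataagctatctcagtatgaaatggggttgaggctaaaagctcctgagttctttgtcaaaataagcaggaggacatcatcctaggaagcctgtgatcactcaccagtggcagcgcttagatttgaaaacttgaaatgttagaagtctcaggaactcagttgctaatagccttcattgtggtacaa
Sema3e: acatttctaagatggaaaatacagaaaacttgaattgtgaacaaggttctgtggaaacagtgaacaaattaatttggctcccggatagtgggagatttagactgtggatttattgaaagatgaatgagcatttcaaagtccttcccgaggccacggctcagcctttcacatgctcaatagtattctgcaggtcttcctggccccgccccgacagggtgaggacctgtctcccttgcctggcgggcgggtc
Sema4f: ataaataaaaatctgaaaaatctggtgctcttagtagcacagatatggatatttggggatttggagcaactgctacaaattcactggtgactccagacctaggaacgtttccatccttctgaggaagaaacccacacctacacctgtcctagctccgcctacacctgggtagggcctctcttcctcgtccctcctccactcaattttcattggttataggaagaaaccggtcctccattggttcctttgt
Sema6c, first start site: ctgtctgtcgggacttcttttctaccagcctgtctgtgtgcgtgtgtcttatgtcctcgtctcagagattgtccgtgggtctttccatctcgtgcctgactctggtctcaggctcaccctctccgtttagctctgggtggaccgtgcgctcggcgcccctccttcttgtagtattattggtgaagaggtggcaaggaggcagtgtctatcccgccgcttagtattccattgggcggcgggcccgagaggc
Sema6c, second start site: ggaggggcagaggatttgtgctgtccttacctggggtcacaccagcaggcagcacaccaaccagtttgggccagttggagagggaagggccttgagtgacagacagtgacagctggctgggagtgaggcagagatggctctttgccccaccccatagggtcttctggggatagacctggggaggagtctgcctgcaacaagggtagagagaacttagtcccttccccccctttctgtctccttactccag
Plxnb1: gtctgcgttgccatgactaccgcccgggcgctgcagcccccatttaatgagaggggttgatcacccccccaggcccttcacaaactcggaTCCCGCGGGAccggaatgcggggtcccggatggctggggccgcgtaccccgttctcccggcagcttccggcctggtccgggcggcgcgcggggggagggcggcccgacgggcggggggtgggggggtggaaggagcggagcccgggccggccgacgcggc
The stretch of Plxnb1, chosen for its match, holds the full motif, whose core begins 159 bases before the start site. None of the other stretches shown held a match. In full windows of 300 bases, which run 50 bases past the start, the full motif was found in 2 of 37 member windows (5.41%). Among all 32851 windows 0.904% held it. The other member window was that of Sema4b, where the core of TCCCCAGGGA begins 20 bases after the start site. The core CCCNNGGG, which lies inside the full motif and, like it, reads the same on both strands, was in 11 member windows (29.7%) and in 13.7% of all windows. Among members past 2-fold with a window, the second start site of Sema6c held the stretch CCCCTGGGG, beyond the bases shown. The core matches it at 2 overlapping positions, from 25 bases after the start. Member windows were also richer in G and C, with a median of 63.7% against 52.7% over all windows, and the part of base composition in these shares was not tested. Of the genes with the full motif, Plxnb1 had 1.5-fold lower signal in the knockout and Sema4b at least 1.82-fold higher signal. A match is only a description of these letters. The table matched 26 of the 33 members; those not matched were Plxdc1, Plxdc2, Plxna1, Plxna4, Sema3b, Sema3f and Sema6a.

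The secreted class 3 semaphorins went both ways. Among the 7 measured, 2 passed 2-fold as higher, 1 was at least 2-fold lower, 3 were lower by less than 2-fold and 1, Sema3g, received no fold (20.6 and 12.9).

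Sema3e, which binds Plxnd1 without a neuropilin and is known for repelling growing vessels, had a signal of 148 in the heterozygote and 37.2 in the knockout, 3.98-fold lower. Its second probe set read 142 and 15.7, at least 5.95-fold lower. Another read 68.2 and 35.6, 1.92-fold lower, and the last read 56.0 and 22.0, at least 2.35-fold lower. All 4 probe sets were thus dimmer in the knockout, and on 2 of them the knockout signal was under the floor. Among the 11785 measured genes the log2 ratio of Sema3e, -1.99, ranked 60th from the lowest. It kept at least 2-fold under all 10 alternative settings, though several of these cannot change a gene above the floor on both arrays. The values ran from -2.17 with the arrays scaled to spike-in transcripts to -1.18 with a pseudocount of 50.

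Sema3a, the osteoblast-derived ligand of Nrp1, had 247 in the heterozygote and 146 in the knockout, 1.70-fold lower, and its second probe set above the floor had 132 and 54.2, 2.44-fold lower. Both readings were lower in the knockout, on either side of 2-fold, and their mean log2 ratio was -1.02. The remaining probe set of Sema3a lay under the floor on both arrays. Sema3c, a ligand of both neuropilins known from heart outflow tract development, had 2174 and 1393, 1.56-fold lower, and by its other probe set 487 and 237.5, 2.05-fold lower. Both probe sets again went the same way. Sema3b, a ligand with tumour-suppressing activity, had 77.4 and 54.9, 1.41-fold lower, and 38.6 and 31.5 by another probe set, 1.22-fold lower; the log2 ratios of both, -0.50 and -0.29, were close to the pooled SD.

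Sema3f, the best known ligand of Nrp2, was higher in the knockout by all 3 of its probe sets. The first had 42.2 in the heterozygote and 102 in the knockout, 2.43-fold higher. The others had 34.2 and 97.9, 2.86-fold higher, and 19.7 and 54.3, 2.76-fold higher. The log2 ratios of the 3 probe sets had a mean of 1.42 and an SD of 0.12. Sema3d, known from vein and heart development, had 53.3 and 119, 2.23-fold higher, on 1 probe set, and its other probe set was under both floors. Both genes had low signals. A pseudocount of 50 brought them to log2 ratios of 0.73 and 0.71, under 2-fold, and with spike-in scaling that of Sema3d was 0.98.

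In the RefSeq gene order Sema3d, Sema3a, Sema3e and Sema3c lie in that sequence on chromosome 5, with 0, 3 and 15 other protein-coding genes between neighbours. Sema3d was higher in the knockout while the other genes of the row were lower. Sema3b and Sema3f lie on chromosome 9 with 3 protein-coding genes between them, and also had opposite signs. Each of these signs held under all the alternatives that gave a value, though several cannot change a gene above both floors.

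**Figure D2:**
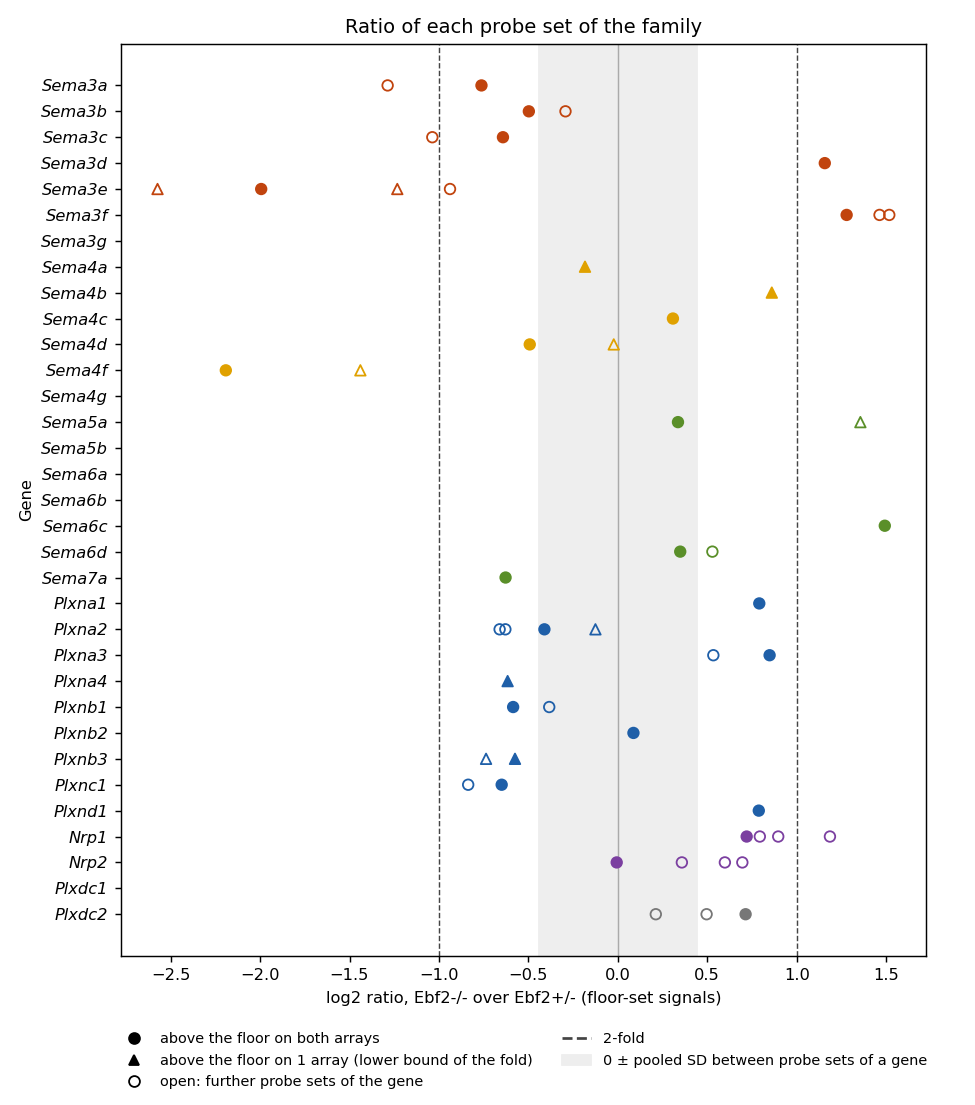
Log2 ratio of knockout over heterozygote for every probe set with a ratio or a bound (54 of 83), by gene; filled symbols are the probe sets used for the genes, open ones further probe sets, triangles bounds, and the grey band is 0 ± the pooled SD of 0.44. The 4 probe sets of Sema3e and the 3 of Sema3f lie on opposite sides of 0, and Nrp2 is the gene with signs on both sides.

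Membrane-bound semaphorins were read next. Of the 6 class 4 genes, Sema4f alone passed 2-fold. Sema4f, a transmembrane semaphorin best known from neural tissue, had 239 in the heterozygote and 52.4 in the knockout, 4.57-fold lower. Its other probe set had 64.6 and 15.8, at least 2.71-fold lower. Both were lower in the knockout, and the log2 ratio of -2.19 ranked 44th from the lowest of all measured genes. The brighter probe set is of a type (_x_at) that can also hybridise to other transcripts; without such probe sets the log2 ratio was at most -1.44.

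Sema4d, the class 4 semaphorin of osteoclasts and lymphocytes, had 55.6 and 39.5, 1.41-fold lower, and a second probe set had 24.2 and 2.30, the latter under the floor. Sema4a, known as a modulator of T cells, was near the floor with 27.0 and 14.9, at least 1.14-fold lower. Sema4b, seen only in the knockout, had 7.98 and 32.4, at least 1.82-fold higher, and was the member nearest to 2-fold on the higher side. The 2 signals of Sema4b without a floor would give a log2 ratio of 2.02, so its size depends on the floor. Sema4c had 36 and 44.5, 1.24-fold higher, and Sema4g had 20 and 21.2, with no fold.

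Among classes 5 to 7, Sema6c, a ligand of class A plexins, had 21.5 in the heterozygote and 60.6 in the knockout, 2.81-fold higher. This value rests on 1 probe set of 3, since the others were under both floors, and its heterozygote signal was close to the floor. The log2 ratio of Sema6c fell to 0.63 when a pseudocount of 50 replaced the floor. Sema6d, a ligand of Plxna1, had 105 and 134, 1.27-fold higher, and 20.5 and 29.5 by a second probe set, 1.44-fold higher. Sema5a, which carries thrombospondin repeats, had 26.2 and 33.1, 1.26-fold higher, while another of its probe sets had 13.6 and 45.6, at least 2.56-fold higher. Its probe sets shared the direction but not the size. Sema7a, the lipid-anchored member, had 98.0 and 63.4, 1.55-fold lower. Sema5b (21.1 and 11.6) received no fold. Sema6a and Sema6b were the members under the floor on both arrays by every probe set.

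Of the 9 plexins, the 7 above the floor on both arrays were under 2-fold. Plxna4 and Plxnb3 have only a bound, which did not reach 2-fold and leaves their size unknown. The log2 ratios and bounds of the 9 plexins ran from -0.65 to 0.85. Plxna1, the class A receptor of Sema6d that also serves with neuropilins, had 213 in the heterozygote and 368 in the knockout, 1.73-fold higher; its other probe set was near the floor (20.9 and 11.6). Plxna3, a partner of Nrp2 for Sema3f, had 41.8 and 75.3, 1.80-fold higher, and 26.5 and 38.3 by its second probe set, 1.45-fold higher. Plxnd1, the receptor of Sema3e, had 54.8 and 94.6, 1.73-fold higher. These 3 receptors were higher in the knockout.

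Plxna2 was lower by all 4 probe sets. The 3 above the floor on both arrays gave 199 and 149.9 (1.33-fold), 174 and 109.9 (1.58-fold), and 141 and 91.4 (1.55-fold). Plxnc1, the receptor of Sema7a, had 152 and 96.8, 1.57-fold lower, and 64.4 and 36.1 by a second probe set, 1.79-fold lower, while its other 4 probe sets were under both floors. Plxnb1, the osteoblast receptor of Sema4d, had 52.2 and 34.8, 1.5-fold lower, and 48.1 and 36.9, 1.3-fold lower. Plxna4 (36.5 and 22.3, at least 1.53-fold) and Plxnb3 (35.5 and 22.1, at least 1.49-fold) were above the floor in the heterozygote only. The second probe set of Plxnb3 had 39.7 and 11.0, at least 1.67-fold lower. Plxnb2, a receptor of class 4 semaphorins, had 988 and 1049.7, a log2 ratio of 0.09 that turned to -0.09 with spike-in scaling.

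Nrp1, which binds Sema3a and vascular endothelial growth factor, was higher in the knockout by all 4 probe sets. It had 682 in the heterozygote and 1123 in the knockout, 1.65-fold higher. Its other probe sets had 315 and 546 (1.73-fold), 216 and 490.4 (2.27-fold), and 23.9 and 44.4 (1.86-fold). The 4 log2 ratios had a mean of 0.90 and an SD of 0.20 over probe sets. Nrp2 was not settled by its probe sets. The one used for the gene had 251 and 249.9, a log2 ratio of -0.01. The others had 126 and 204 (1.62-fold higher), 187 and 284 (1.51-fold higher), and 23.3 and 29.9 (1.28-fold higher). Their mean log2 ratio was 0.41, so the direction of Nrp2 depends on the probe set. Plxdc2, which shares only a short plexin domain with the receptors, had 574 and 942, 1.64-fold higher, with 1.16-fold and 1.41-fold by its dimmer probe sets. Plxdc1 (18.9 and 13.3) received no fold.

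**Figure D3:**
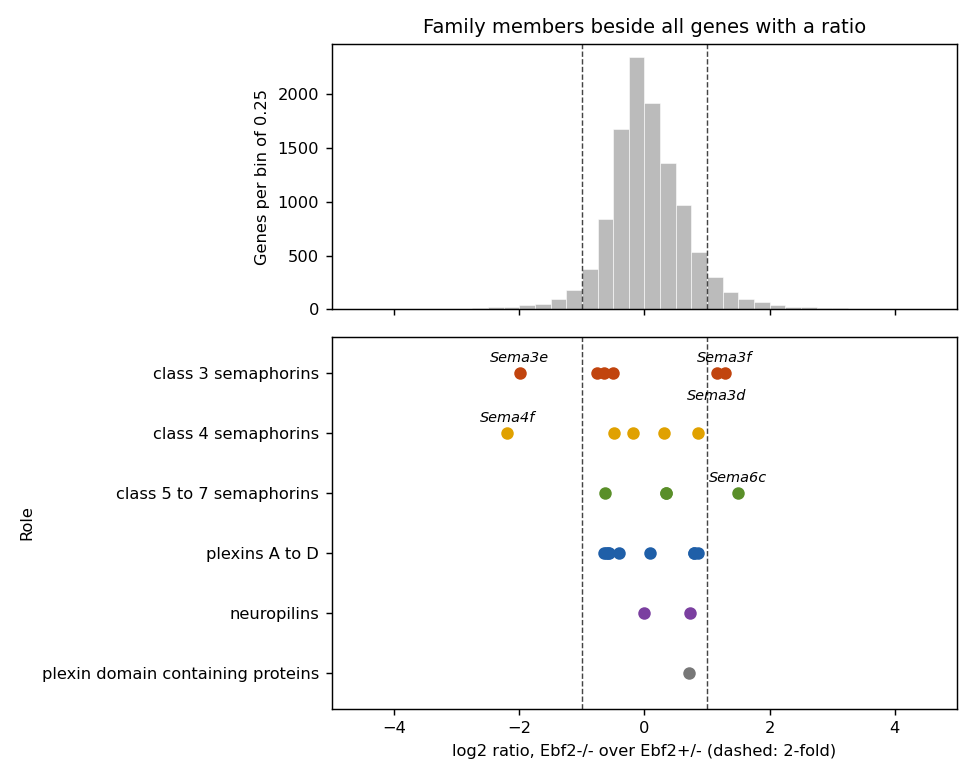
Upper panel: number of genes per bin of log2 ratio, for all measured genes with a ratio or a bound; lower panel: the 27 members with a ratio or a bound, by role, with dashed lines at 2-fold. Members past 2-fold (Sema3e, Sema4f, Sema3d, Sema3f and Sema6c) are named and lie in the semaphorin rows.

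Ligands and their known receptors were set side by side. Sema3e was 3.98-fold lower where its receptor Plxnd1 was 1.73-fold higher. Sema3a was 1.70-fold lower where Nrp1 was 1.65-fold higher. Sema3f was 2.43-fold higher and Plxna3 1.80-fold higher, with Nrp2 between no difference and 1.62-fold. Sema7a and Plxnc1 were lower by 1.55-fold and 1.57-fold, and Sema4d and Plxnb1 by 1.41-fold and 1.5-fold. Sema6d and Plxna1 were higher by 1.27-fold and 1.73-fold. Pairs were therefore found with equal and with opposite signs. Apart from Sema3e and Sema3f each of these genes was under 2-fold by the probe set used.

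Partners outside the family were taken from lists made by known role. Among 11 measured ligands and co-receptors of neuropilins, 2 passed 2-fold as higher and 2 as lower (18.2% each). A single gene counts for 9.09% of this list, and all measured genes had shares of 6.30% higher and 3.46% lower. The growth factor Vegfd had 311 in the heterozygote and 1381 in the knockout, 4.44-fold higher, and Vegfc 53.8 and 133, 2.47-fold higher. The adhesion molecules L1cam and Nrcam, co-receptors of neuropilins in axons, had 150.5 and 45.9, 3.27-fold lower, and 108 and 36.4, 2.97-fold lower. Of 9 measured plexin co-receptors and other semaphorin receptors 1 was higher and 3 lower by at least 2-fold (11.1% and 33.3%). In this list a single gene counts for 11.1%. Erbb2, a receptor kinase that joins class B plexins, had 45.2 and 114, 2.53-fold higher. Tyrobp, the adaptor of the Plxna1 complex in osteoclasts and dendritic cells, had 680 and 149.8, 4.54-fold lower, its partner Trem2 74.9 and 30.9, 2.42-fold lower, and Cd72, a lymphocyte receptor of Sema4d, 74.4 and 33.6, 2.21-fold lower.

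Few genes of the intracellular part of the pathway passed 2-fold. Of 18 measured small GTPases and their regulators 0 passed 2-fold in either direction, with a median log2 ratio of 0.00. The largest ratios were those of Rnd2 (45.3 and 74.4, log2 ratio 0.72) and Farp1 (655 and 444, log2 ratio -0.56). Of 15 cytoskeletal effectors and kinases 1 was at least 2-fold higher and 0 lower. This was Mical2, a monooxygenase of the family that oxidises actin under plexins, with 29.5 and 69.7, 2.36-fold higher, followed by Limk1 with 67.6 and 121 (log2 ratio 0.84). Of 6 proteases that process semaphorins 1 was at least 2-fold higher, the convertase Pcsk5 with 124 and 344, 2.77-fold higher, followed by Pcsk6 with 195 and 357, 1.83-fold higher.

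**Figure D4:**
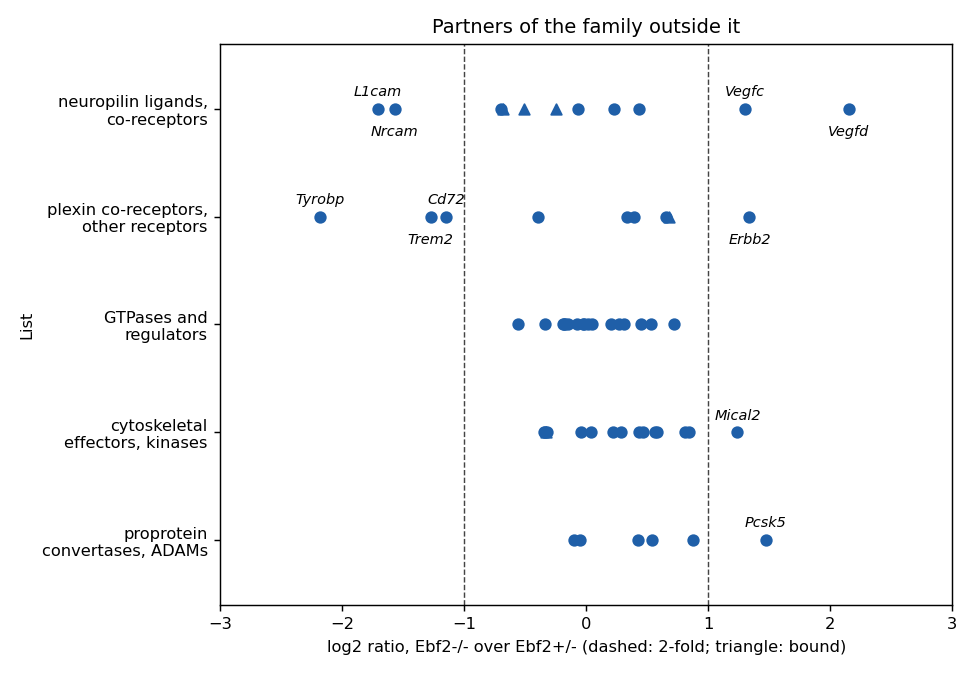
Log2 ratio of knockout over heterozygote for measured genes of the 5 partner lists with a ratio (circles) or a bound (triangles), with dashed lines at 2-fold and names for genes past it. The neuropilin partners spread from -1.71 to 2.15, while the GTPase list stays between -0.56 and 0.72.

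Markers of other cells differed on the same arrays. All 13 measured macrophage and leukocyte markers of 14 were dimmer in the knockout by 2-fold or more. The pan-leukocyte Ptprc had 205 and 27.5, and the signals of all 14 summed to 8441 and 1941. Tyrobp is one of these markers, and Trem2, Cd72, Plxnc1, Sema4a and Sema4d, all lower in the knockout, are also known from leukocytes. The list is not complete, and Plxna1, whose complex in dendritic cells holds Tyrobp, was 1.73-fold higher. Of 6 measured Schwann cell and neuron markers 4 were at least 2-fold lower (sums 1141 and 382). L1cam, Nrcam, Sema4f and Plxnb3, also known from this group, were lower in the knockout. They are not a full list of such genes, and Sema3f (2.43-fold) and Plxna3 (1.80-fold) were higher. Of 7 measured chondrocyte markers 5 were at least 2-fold lower (sums over all 9 markers: 12323 and 3727). The others were Comp (232 and 395, 1.70-fold higher) and Sox9 (213 and 209). Of 6 adipocyte markers 5 were higher and 1 lower by at least 2-fold (sums 818 and 2893). Of 8 endothelial markers 6, among them Pecam1 and Cdh5, were under both floors, Tek had 3.53 and 46.5, at least 2.61-fold higher, and Kdr 33.9 and 3.32, at least 1.42-fold lower. Of 6 osteoclast markers 4 were under both floors (Acp5, Calcr, Dcstamp and Oscar), Nfatc1 had 101 and 42.7, 2.37-fold lower, and Ctsk 858 and 699.96, 1.23-fold lower. The part of any of these cells in the ratios of semaphorins, plexins and neuropilins was not tested. Of the 6 osteoblast markers with a value 4 were measured (sums over the 6 of 14194 and 27912). The collagen genes Col1a1 (5478 and 12784, 2.33-fold) and Col1a2 (8597 and 15008, 1.75-fold) and alkaline phosphatase, Alpl (25.4 and 51.8, 2.04-fold), were higher in the knockout. The transcription factor Sp7 had 83.7 and 53.3, 1.57-fold lower, and Ibsp and Phex, genes of more mature cells, were under both floors.

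The Ebf2 transcript does not check the labels: its probe sets had 24.9 and 20.6, 14.4 and 25.1, and 13.7 and 14.4, so that 1 exceeded the floor in the heterozygote only, 1 in the knockout only and 1 on neither array. The 3′ over 5′ signal of beta-actin, which rises as RNA degrades, stood at 1.97 on the heterozygote array against 2.79 for the knockout, and its part in the ratios was not tested.

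**Figure D5:**
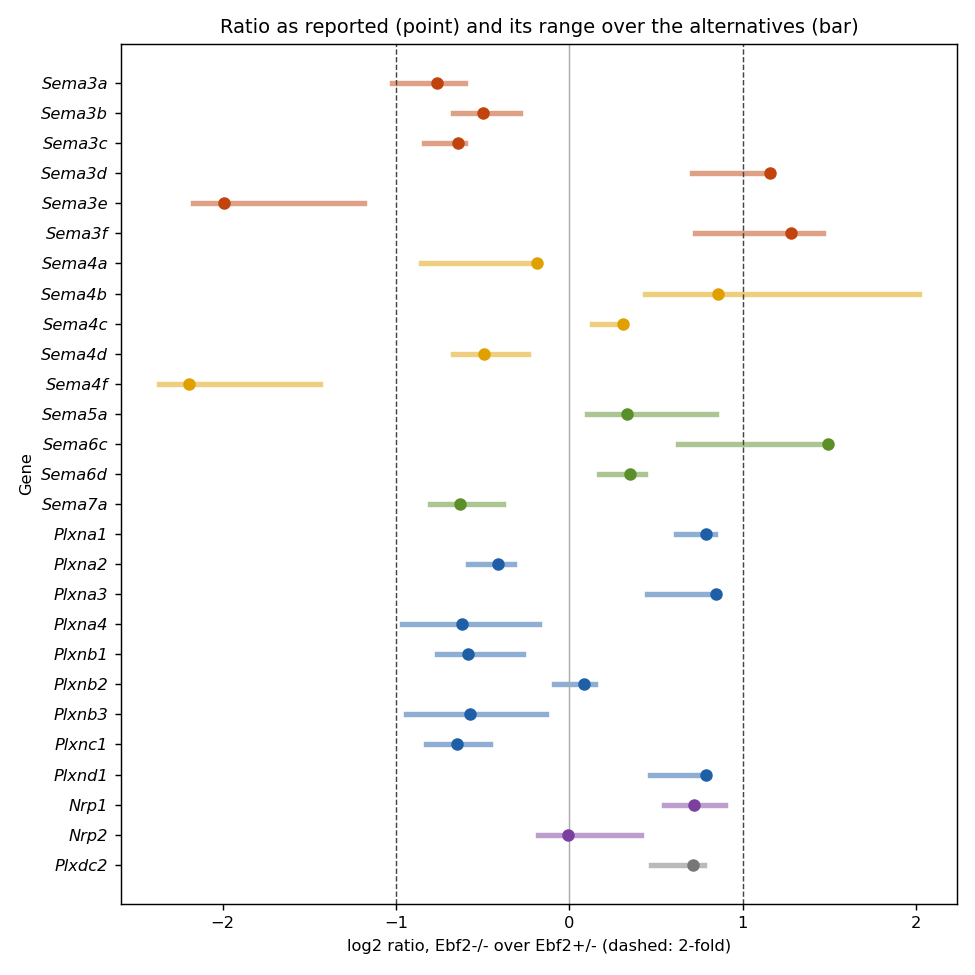
Log2 ratio of the 27 members with a ratio or a bound as reported (points) and its range over the alternative settings (bars), with dashed lines at 2-fold. The bars of Sema3e and Sema4f stay beyond 2-fold, those of Sema3d, Sema3f and Sema6c cross it, and those of Nrp2 and Plxnb2 cross 0.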

How the data were processed

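RNA of sorted, cultured osteoblastic cells was hybridised to Affymetrix mouse genome arrays, 1 per genotype. The authors deposited 1 linear intensity per probe set and array, computed with MAS5 per the submitters' processing notes, which give no version. With 2% of values trimmed at each end the mean was 100.0 on both arrays, so a difference common to most genes was removed. Symbols were those of the platform annotation (34958 of 45101 probe sets had 1 symbol), and all 33 members were found in RefSeq (GRCm38.p6). The floor was the 95th percentile of 86 chemosensory receptor probe sets on each array. With 1 array per genotype no p-value was computed, and 2-fold was the reference size. The members, lists and settings were chosen with earlier results of these data known. Members past 2-fold, the 5 with the highest mean signal, members with probe sets of opposite sign and the 2 largest ratios of each partner list were to be named; other members and partners were named for their role. The 10 alternatives covered floor, pseudocount, scaling and choice of probe set. Python 3.11.15 with pandas 2.3.3 and statsmodels 0.14.6 was used, and the steps were tested on simulated data.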

Additional observations from a re-analysis of the deposited data

How the results depend on the processing

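Over 10 alternatives the count of members at least 2-fold higher in the knockout was 2 to 4, except for 0 with a pseudocount of 50, which compresses low signals. The count at least 2-fold lower was 2 or 3. Over the 31 measured members, with floor-set values for the 4 given no fold, the median log2 ratio was 0.17, the value of Sema5b. Sema5b is 1 of those 4, whose values are positive because the knockout floor exceeds their heterozygote signals. The median was -0.41 without a floor, and otherwise ranged from -0.17 to 0.28. Its sign therefore depends on the floor and on scaling (-0.17 after lowess, -0.0026 with spike-in transcripts). Of 262 member values under alternatives 253 stayed within 1 pooled SD (0.44) of the reported value, 9 moved further and 0 of those past 2-fold reversed. Much of this was fixed in advance. For a member above both floors, leaving out the floor, the array median as floor or keeping only such members returns the reported value. Spike-in scaling shifts each log2 ratio by 0.18, less than the pooled SD. The 253 are therefore no measure of how robust the values are. Signs held for 25 of 27 members, all but Nrp2 and Plxnb2. Scaling to the spike-in transcripts lowered every log2 ratio and put the median of all genes above the floor on both arrays at -0.17, with 2 members higher and 2 lower. The mean over probe sets used those above the floor on at least 1 array. No paired analysis was possible because each genotype had 1 array. Signals near the floor, as for Sema6c, Sema4b and Sema5a, limit the size of a ratio that can be read.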

Other observations

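Members of the family lay away from a ratio of 1 more often than other genes, in both directions. Of the 27 members with a ratio or a bound 9 (33.3%) had a log2 ratio within 0.5 of 0, against 65.5% of 11149 other genes. Among genes with a geometric mean signal of 20 to 400 these shares were 36.4% of 22 members and 62.9% of 8125 other genes. The plexins, neuropilins and plexin domain proteins were within 0.5 in 3 of 12 cases (Nrp2, Plxnb2 and Plxna2), and the semaphorins in 6 of 15. The bound of 0.5 was chosen after the ratios were seen, genes of 2 single arrays are not replicates, and no test was made.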
